A study of Mus musculus with 3 samples.

Results

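The genes described here are 40 cell cycle genes taken by symbol from a list that assigns each to a phase: 12 of the G1 phase, 12 of the S phase and 16 of the G2 and M phases (G2/M). All 40 were found among the 55536 annotated genes of the deposited tables. They were measured in cytosolic RNA of bone marrow-derived macrophages of C57BL/6J mice, exposed for 25 minutes to lipid A at 100 ng/ml, the part of bacterial lipopolysaccharide that activates the receptor TLR4. Ribosomal RNA was depleted from 1 µg of RNA per library. There were 3 libraries, labelled biological replicates 1 to 3, in 1 group, with no untreated or other cells to compare them with. The labels tie all 3 to 1 donor record and give neither age nor sex, so the spread between replicates may be technical. The comparisons are between the phases within each library and between the replicates.

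The cell cycle is driven by cyclin-dependent kinases (CDKs). In G1, D-type cyclins with CDK4 or CDK6 phosphorylate the retinoblastoma protein RB, which frees E2F factors to switch on cyclin E and the genes of DNA synthesis, while the inhibitors p21 and p27 hold CDKs in check. In resting cells the DREAM complex represses G2/M genes through a promoter element called CHR, often next to a CCAAT box bound by NF-Y, and in cycling cells the factors B-MYB and FOXM1 activate the same promoters. Macrophages grown from bone marrow divide in response to the growth factor M-CSF, and TLR4 agonists are known to stop that division over hours.

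The phase groups differed in their promoters, which the list did not use. RefSeq promoters (250 bases before and 50 after the start site, build GRCm38.p6, the same coordinates as mm10) were matched for 33 of the 40 genes, 8 of G1, 11 of S and 14 of G2/M, and exact words were searched on both strands. The E2F words were TTTGGCGC, TTTCCCGC, TTTCGCGC and TTTGCCGC, the CHR words were TTTGAA and TTCGAA, and the NF-Y word was CCAAT. The windows below run from 160 bases before to 10 bases after the start site, with each matched word in capitals. They are examples picked from each phase, and Cdk2 and Cdk1 are exceptions in their phases for holding an E2F word. Where words overlap, as both E2F words of Mcm5 do, they form 1 run of capitals. The Cdkn1a window, which holds no word, is that of the downstream of its 2 RefSeq start sites.
Cdkn1a (chr17:29093609-29093779, plus strand): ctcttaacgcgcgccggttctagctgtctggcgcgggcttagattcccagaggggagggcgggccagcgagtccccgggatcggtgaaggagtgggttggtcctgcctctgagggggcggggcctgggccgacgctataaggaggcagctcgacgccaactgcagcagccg
Cdk2 (chr10:128705041-128705211, minus strand): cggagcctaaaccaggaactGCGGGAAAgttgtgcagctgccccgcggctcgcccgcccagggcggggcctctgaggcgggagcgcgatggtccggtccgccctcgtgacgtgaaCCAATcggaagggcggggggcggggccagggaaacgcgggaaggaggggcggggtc
Mcm5 (chr8:75109349-75109519, plus strand): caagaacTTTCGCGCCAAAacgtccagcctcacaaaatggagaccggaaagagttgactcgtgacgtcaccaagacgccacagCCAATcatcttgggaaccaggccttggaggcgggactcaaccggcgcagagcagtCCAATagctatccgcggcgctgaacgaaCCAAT
Mcm6 (chr1:128359695-128359865, minus strand): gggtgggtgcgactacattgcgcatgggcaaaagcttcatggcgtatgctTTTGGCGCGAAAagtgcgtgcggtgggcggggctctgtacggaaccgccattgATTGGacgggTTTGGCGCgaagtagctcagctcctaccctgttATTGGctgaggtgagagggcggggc
Ccnb2 (chr9:70421544-70421714, minus strand): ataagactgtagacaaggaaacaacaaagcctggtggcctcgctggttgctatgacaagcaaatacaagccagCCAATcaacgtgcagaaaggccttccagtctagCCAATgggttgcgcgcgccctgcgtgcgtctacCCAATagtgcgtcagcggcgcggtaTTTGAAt
Cdk1 (chr10:69352902-69353072, minus strand): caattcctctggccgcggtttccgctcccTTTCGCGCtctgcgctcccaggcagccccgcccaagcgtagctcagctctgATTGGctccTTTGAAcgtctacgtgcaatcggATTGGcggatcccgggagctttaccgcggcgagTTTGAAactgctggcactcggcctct
Top2a (chr11:99024179-99024349, minus strand): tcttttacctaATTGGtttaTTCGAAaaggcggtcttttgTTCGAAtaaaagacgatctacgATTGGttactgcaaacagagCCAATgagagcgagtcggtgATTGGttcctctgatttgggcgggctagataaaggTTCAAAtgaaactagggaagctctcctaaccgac

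An E2F word was found in 6 of the 11 S genes (54.5%), 1 of 8 G1 genes (Cdk2) and 1 of 14 G2/M genes (Cdk1), against 2.6% of all 27025 genes with a RefSeq promoter and 4.82% of the 7289 that were detected here. The S genes with one were Mcm3, Mcm5, Mcm6, Mcm7, Cdc6 and Cdt1. A CHR word was found in 11 of the 14 G2/M genes (78.6%), 2 of the 11 S genes (Mcm2 and Mcm7) and 0 of the 8 G1 genes, against 21.7% of all genes and 16.2% of those detected. Each of the 11 G2/M promoters with a CHR word also held a CCAAT box, a combination present in 8.61% of all genes. CCAAT alone was in 92.9% of the G2/M, 72.7% of the S and 37.5% of the G1 promoters, and in 41.1% of all. In the Ccnb2 window the 3 CCAAT boxes start 33 bases apart and precede the CHR word shown. Another CHR word of this promoter starts at base -167, before all 3 boxes and outside the printed window. Boxes on 1 strand that start 32 or 33 bases apart were also in Aurka, Ccnb1 and Cdk1, a spacing noticed after the promoters had been read. Birc5, a G2/M gene, held none of the words, and Cenpe and Ccnb1 held CCAAT but no CHR word. Top2a carried the most words of the promoters of these genes, 6 CCAAT boxes and 4 CHR words, at a GC content of 47.7%. The median GC content was 65.7% in G1, 57.5% in S and 57.8% in G2/M promoters, against 52.7% over all promoters and 61.0% over those of detected genes, and how far GC content moves these shares was not tested. The windows follow RefSeq start sites, and those of E2f1, Cdk6, Cdc6 and Mcm7 lie wholly inside the annotated gene. So do the downstream windows of Ccnd3 and Cdkn1a. On the minus strand the E2f1 window spans 154569377 to 154569676 and the gene begins at 154569892. On the plus strand the Cdk6 window begins at 3343643 and the gene at 3341485. Cdc6 and Mcm7 held an E2F word there, E2f1 and Cdk6 none of the words. The downstream window of Ccnd3 held the only word of that gene, a CCAAT box, and that of Cdkn1a held none. How far this moves the G1 shares was not tested. A match is a run of letters, not a measured binding site.

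**Figure D1:**
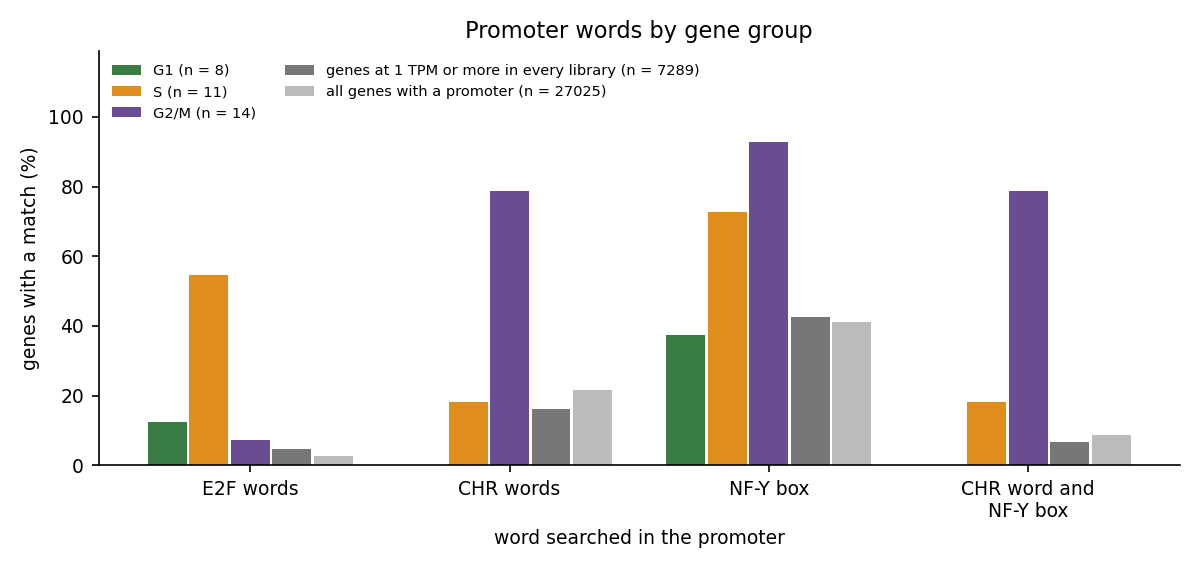
Percent of genes (y axis) with at least 1 match to the words on the x axis in any of their RefSeq promoters; bars are the 3 phase groups, the genes detected here and all genes with a promoter, with the number of genes in the key. CHR words stand at 78.6% in the G2/M genes and at 0.0% in the G1 genes, and E2F words at 54.5% in the S genes.

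The median level was highest in G1, lower in S and lowest in G2/M. The median over the 12 G1 genes was 7.01, 6.225 and 7.08 TPM (the deposited level per transcript length, by which genes can be compared within a library) in replicates 1, 2 and 3, a mean of 6.77 ± 0.47 (SD, n = 3). The S median was 2.96, 4.31 and 3.735 TPM (3.67 ± 0.68) and the G2/M median 0.965, 1.795 and 1.145 TPM (1.30 ± 0.44). In every library the order was the same. On the scale log2(TPM + 0.1), G1 lay above S by a difference of medians of 0.87 ± 0.34, above G2/M by 2.32 ± 0.52, which is 5.004-fold, and S lay above G2/M by 1.45 ± 0.21 (SD, n = 3). These differences were 2.55, 4.43 and 6.81 times their SD over libraries, in the order given, but 3 libraries allow no two-sided exact sign-flip p below 0.25, so no test of the order was made. The medians compare different genes, each with a level of its own, so their order is not a measure of how many cells cycled. In bulk RNA, few cycling cells and little RNA per cycling cell cannot be told apart either.

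Counted as detected at 1 TPM or more in every library, 24 of the 40 genes passed, 9 of 12 in G1, 10 of 12 in S and 5 of 16 in G2/M. Of all 22015 nuclear protein-coding genes, 41.3% passed. The shares were 75.0% in G1, 83.3% in S and 31.2% in G2/M. Where the G2/M share lay against that of protein-coding genes turned on replicate 1: without it, 10 of 16 G2/M genes (62.5%) passed, beside 42.0% of protein-coding genes. In single libraries, 5 G2/M genes reached 1 TPM in replicate 1, 15 in replicate 2 and 10 in replicate 3, whereas G1 counted 9 in each and S 10, 11 and 11. The 5 genes below 1 TPM in all 3 libraries were the cyclins Ccnd2, Ccne1 and Ccne2, the helicase loader Cdc6 and the kinetochore gene Cenpf. The counts also depend on the scale: in the alignment-free tables, whose TPM are lower, 9 G1, 5 S and 1 G2/M genes passed, beside 30.1% of protein-coding genes. None of the 40 was without counts, and the lowest was Ccne1 in replicate 3 with 56.

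**Figure D2:**
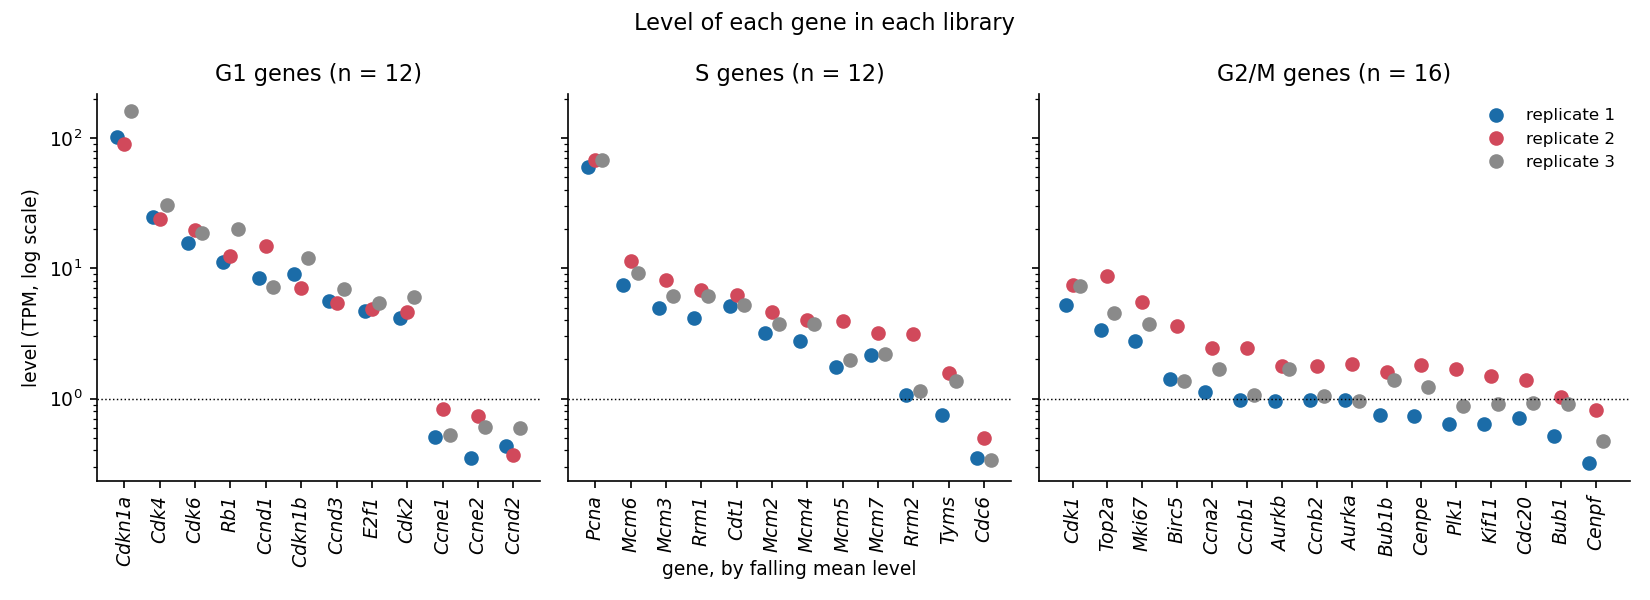
Level of each gene (y axis, TPM, log scale) in each library (coloured points), with genes ordered by mean level within each phase on the x axis and 1 TPM as a dotted line. Cdkn1a and Pcna stand above all others, Ccne1, Ccne2 and Ccnd2 lie below 1 TPM, and the points of replicate 2 lie highest in the G2/M panel.

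The G1 genes varied widely in level among the inhibitors, among the kinases and among the cyclins. Cdkn1a, encoding p21 (ENSMUSG00000023067.14, on the plus strand of mm10 chromosome 17 from 29090976 to 29100727), was the highest of the 40, with 101.65, 89.53 and 160.6 TPM. Cdkn1b, encoding p27, stood at 9.06, 7.04 and 12.04 TPM. Cdkn1a thus exceeded Cdkn1b by 11.2, 12.7 and 13.3 times, a ratio that varied little although both genes were lowest in replicate 2.

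Of the G1 kinase genes, Cdk4 was at 24.54, 23.98 and 30.41 TPM and Cdk6 at 15.63, 19.70 and 18.76 TPM, so Cdk6 reached 0.64, 0.82 and 0.62 of the Cdk4 level. Cdk2, the partner of E-type cyclins, was lower at 4.18, 4.64 and 5.97 TPM. Rb1, encoding the repressor that these kinases phosphorylate, was at 11.22, 12.34 and 19.91 TPM, and E2f1, encoding the factor RB restrains, at 4.70, 4.86 and 5.39 TPM.

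Of the D-type cyclins, Ccnd1 (minus strand of chromosome 7, 144929931 to 144939925) had 8.37, 14.87 and 7.24 TPM, highest in replicate 2. Ccnd3 was at 5.65, 5.41 and 6.92 TPM, close together in the 3 libraries. Ccnd2 was at 0.43, 0.37 and 0.59 TPM, far below both. The ratio of Ccnd1 to Ccnd3 was therefore 1.48, 2.75 and 1.05, so the lead of Ccnd1 was widest in replicate 2. The E-type cyclins, which drive entry into S phase with CDK2, were at 0.51, 0.83 and 0.53 TPM (Ccne1) and 0.35, 0.73 and 0.61 TPM (Ccne2).

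Among the S genes, Pcna stood far above the rest. It encodes the sliding clamp that holds DNA polymerases on their template (minus strand of chromosome 2, 132249162 to 132253314) and had 59.46, 67.89 and 67.41 TPM, 7.95, 5.97 and 7.38 times the level of Mcm6, the next highest. The 6 genes of the MCM helicase, which unwinds DNA at the fork and is assembled from 1 copy of each subunit, had mean levels from 2.52 TPM (Mcm7) to 9.33 TPM (Mcm6). Mcm6 was at 7.48, 11.38 and 9.13 TPM, Mcm3 at 4.94, 8.15 and 6.18 TPM, and Mcm2, Mcm4 and Mcm5 averaged 3.84, 3.49 and 2.55 TPM. All 6 were highest in replicate 2.

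The loaders of that helicase were unequal. Cdt1 was at 5.15, 6.25 and 5.25 TPM and Cdc6 at 0.35, 0.50 and 0.34 TPM, a ratio of 14.7, 12.5 and 15.4. Of the genes that supply DNA precursors, Rrm1, the large subunit of ribonucleotide reductase, was at 4.13, 6.84 and 6.11 TPM. Rrm2, the small subunit, whose level is known to follow S phase, was at 1.07, 3.15 and 1.15 TPM. The ratio of Rrm1 to Rrm2 was lowest in replicate 2 (3.86, 2.17 and 5.31). Tyms, thymidylate synthase, was at 0.75, 1.56 and 1.36 TPM.

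In G2/M, Cdk1, the mitotic kinase, was at 5.22, 7.47 and 7.27 TPM and had the highest mean. Top2a, the topoisomerase that untangles replicated DNA, was at 3.38, 8.69 and 4.54 TPM, above Cdk1 in replicate 2 and below it in the others. Mki67, the coat protein of mitotic chromosomes used as a marker of cycling cells, was at 2.76, 5.50 and 3.75 TPM. Birc5, which encodes the passenger protein survivin, was at 1.41, 3.59 and 1.37 TPM and Ccna2, cyclin A2, at 1.12, 2.44 and 1.69 TPM. In Top2a, Mki67, Birc5 and Ccna2 the value of replicate 2 was 1.44 times that of the next replicate or more.

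The remaining 11 G2/M genes had means from 0.537 to 1.497 TPM. Ccnb1, cyclin B1, was the highest of them at 0.98, 2.44 and 1.07 TPM, so that Cdk1 exceeded it by 5.33, 3.06 and 6.79 times. The lowest were Cenpf, a kinetochore protein gene, at 0.32, 0.82 and 0.47 TPM, Bub1, a kinase of the spindle checkpoint, at 0.52, 1.02 and 0.91 TPM, and Cdc20, the activator of the anaphase-promoting complex, at 0.71, 1.39 and 0.92 TPM. Of these 11, 10 reached 1 TPM in replicate 2 alone or in replicates 2 and 3, and Cenpf in none.

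The TPM of a table share 1 total, so they also depend on the share that other RNAs take: nuclear protein-coding genes held 22.7, 22.9 and 29.8% of TPM in replicates 1, 2 and 3. Replicates were therefore compared by counts scaled to library size with TMM factors (CPM). All 40 genes were among the 12744 that passed the count filter. Single libraries stand on each side, so no test was made, and a gene was called where the ratio was 1.5-fold or more.

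All 12 S genes and all 16 G2/M genes had their highest CPM in replicate 2, and 4 of the 12 G1 genes did. Over all genes tested, 39.4% were highest in replicate 2, 26.6% in replicate 1 and 34.0% in replicate 3. Of the G1 genes, Ccnd1, Cdk6, Ccne1 and Ccne2 were highest in replicate 2. Replicate 1 was highest for Ccnd3, Cdk4, Cdkn1b and E2f1, and replicate 3 for Ccnd2, Cdk2, Cdkn1a and Rb1.

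Relative to replicate 1, 23 of the 40 genes were 1.5-fold or more higher in replicate 2 (3 of G1, 5 of S and 15 of G2/M), beside 8.42% of all genes tested, and 0 were lower, beside 1.92%. Relative to replicate 3, 25 were higher in replicate 2 (3, 8 and 14), beside 10.1%, and 0 lower, beside 4.49%. Between replicates 3 and 1, 0 of the 40 were higher (3.16% of all genes) and 1, Ccnd1, was lower (2.77%). At 2-fold, 10 genes were higher in replicate 2 than in replicate 1 (0, 2 and 8; background 3.83%) and 12 higher than in replicate 3 (1, 3 and 8; 4.87%). At that fold 0 were lower in replicate 2 than in replicates 1 or 3 (0.275 and 1.37% of all genes), and 0 differed between replicates 3 and 1 (0.808% higher and 0.541% lower).

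The median log2 ratio of replicate 2 to replicate 1 was -0.02 in G1, 0.53 in S and 1.05 in G2/M, which is 0.99-, 1.44- and 2.06-fold, with 0.00 over all genes tested. To replicate 3 it was -0.02, 0.62 and 1.00. Between replicates 3 and 1 the medians were -0.07, -0.15 and 0.09. The comparisons share libraries and are not independent of each other.

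**Figure D3:**
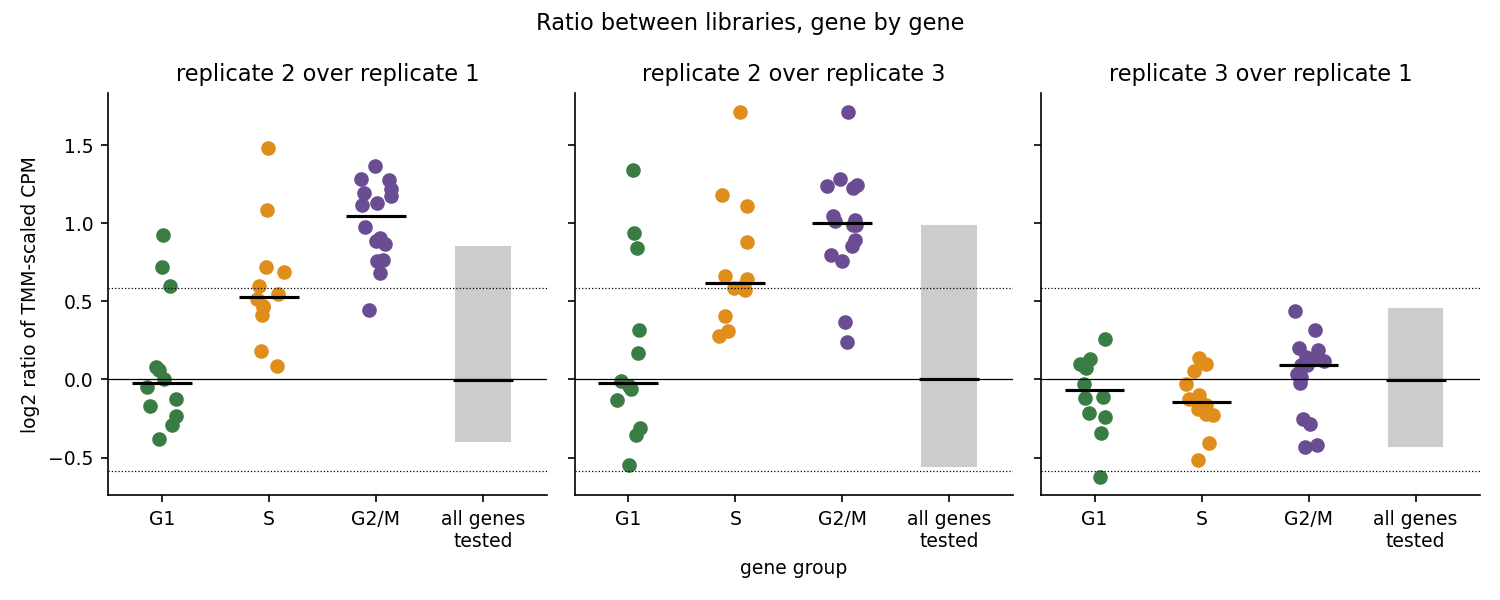
Log2 ratio of TMM-scaled CPM between libraries (y axis) for each gene (points) by phase (x axis), with black bars at the medians; the grey box spans the 5th to 95th percentile of the 12744 genes tested, and dotted lines mark 1.5-fold. In the panels with replicate 2 the G2/M medians lie at 1.05 and 1.00, and between replicates 3 and 1 the 3 medians lie between -0.15 and 0.09.

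In G2/M the higher level in replicate 2 reached across all roles. Top2a had 23.8, 55.5 and 23.4 CPM in replicates 1, 2 and 3 (2.33- and 2.37-fold higher in replicate 2 than in 1 and 3), and Mki67 50.4, 99.1 and 54.8 CPM (1.97- and 1.81-fold). Ccna2 had 5.52, 12.5 and 6.29 CPM, Ccnb1 4.39, 7.45 and 3.68 CPM and Ccnb2, cyclin B2, 2.58, 4.37 and 2.12 CPM. In each of these genes replicates 1 and 3 lay closer to each other than to replicate 2.

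Mitotic kinases and passenger proteins showed the same order. Plk1, which drives mitotic entry, had 2.58, 6.25 and 2.65 CPM, and Aurka, a centrosomal kinase, 3.14, 5.71 and 2.34 CPM. Birc5 had 2.14, 5.21 and 1.59 CPM, the widest gap of the group to replicate 3 (3.28-fold), on 109, 223 and 61 counts. Aurkb, the kinase of the passenger complex, had 3.33, 5.34 and 4.14 CPM, and its 1.29-fold ratio to replicate 3 missed the threshold.

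Checkpoint genes were similar, with Bub1 at 3.08, 5.69 and 3.28 CPM, Bub1b at 4.21, 9.65 and 5.71 CPM and Cdc20 at 2.196, 4.12 and 2.22 CPM. Of the kinetochore and spindle genes, Cenpf had 6.34, 16.3 and 6.97 CPM and Cenpe, a kinetochore motor, 11.1, 24.3 and 12.3 CPM. Kif11, the motor that separates the spindle poles, had 5.86, 12.7 and 6.26 CPM. The exception was Cdk1, at 7.32, 9.95 and 8.43 CPM, which was highest in replicate 2 but under 1.5-fold against both others.

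The S genes formed a graded series. Rrm2 had the largest ratio of its phase at 4.02, 11.2 and 3.43 CPM (2.80- and 3.28-fold), followed by Mcm5 at 8.61, 18.3 and 8.06 CPM (2.12- and 2.27-fold). Mcm7 had 8.40, 13.8 and 7.50 CPM, Cdc6 2.16, 3.26 and 1.51 CPM and Tyms 1.70, 2.73 and 1.81 CPM. These 5 passed 1.5-fold against both other libraries.

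Mcm2 (19.6, 27.2 and 17.2 CPM), Mcm6 (40.4, 57.8 and 37.0 CPM) and Cdt1 (20.4, 23.1 and 15.4 CPM) passed it against replicate 3 only. Mcm3 missed it narrowly against both (1.46- and 1.49-fold), and Mcm4, Rrm1 and Pcna were at 1.38-, 1.33- and 1.06-fold over replicate 1. Pcna, with the highest level, had the smallest ratio to replicate 1, at 153.1, 162.6 and 131.3 CPM.

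Of the G1 genes, those called were cyclins. Ccnd1 had 58.4, 96.2 and 37.9 CPM, 1.65-fold higher in replicate 2 than in replicate 1 and 2.54-fold higher than in replicate 3, and it was the only one of the 40 past 1.5-fold between replicates 3 and 1 (0.65-fold, a call lost with library size in place of TMM). Ccne1 had 1.85, 2.80 and 1.46 CPM and Ccne2 1.95, 3.70 and 2.07 CPM, on 56 to 158 counts. The kinases, Rb1, E2f1 and Ccnd3 lay within 1.25-fold between any pair of libraries. Cdkn1a, at 336.1, 274.1 and 401.5 CPM, and Cdkn1b, at 41.9, 32.1 and 41.1 CPM, were lowest in replicate 2, at 0.68- and 0.78-fold of replicate 3, short of the threshold, which Cdkn1a passed with library size in place of TMM or in the alignment-free counts (0.66-fold in each). Of the 12 G1 genes, 5 were lowest in replicate 2, beside 39.7% of all genes tested.

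The spread over all 3 libraries followed the same steps. The median SD of log2 CPM was 0.163 in G1, 0.340 in S and 0.610 in G2/M, against 0.127 over all genes tested and 0.107 to 0.111 over genes in the same range of counts. The largest single values were 0.93 (Rrm2), 0.89 (Birc5) and 0.75 (Cenpf), and the smallest was 0.05 (Cdk2). Without replicate 2 the medians were 0.0887, 0.106 and 0.117, against 0.080 over all genes, so the order of the phases kept its direction at a much smaller size. The common biological coefficient of variation estimated by edgeR over all genes was 15.15%, and 10.02% without replicate 2.

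Other RNAs were also highest in replicate 2. For RNAs that stay in the nucleus, the summed CPM (here by library total alone) of 7 listed members was 2991, 10640 and 2392, and all 4 with enough counts were 1.5-fold or more higher there than in both others, Malat1 among them at 392.0, 1143.9 and 374.0 TPM. Malat1 made up most of the sum, at 2683, 9473 and 1947 TMM-scaled CPM. The summed CPM of 8 progenitor markers was 6.40, 9.78 and 5.78, with 0 of 8 at 1 TPM in every library. Of the 4 with enough counts, 2 were called higher in replicate 2 than in replicate 1 and 3 than in replicate 3. Over all genes tested, 8.42 and 10.1% were. Mpo, a gene of dividing myeloid progenitors, was called against both (0.89, 2.335 and 0.525 TMM-scaled CPM). Kit was called against neither (3.48, 4.02 and 3.68 CPM), and Cd34 had 6, 3 and 1 counts. The 8 neutrophil markers summed to 41.2, 58.6 and 41.6 CPM, with 4 of 8 detected, beside 41.3% of protein-coding genes. Of the 5 with enough counts, 3 (S100a9, Ngp and Ltf) were called higher in replicate 2 than in both others. S100a8 and Mmp8 were not called, and Ly6g had 0, 2 and 0 counts. Between replicates 3 and 1, 2 of the 4 progenitor and 2 of the 5 neutrophil markers were called lower in replicate 3. Over all genes tested 2.77% were, and 0 of the S and G2/M genes. The 10 macrophage markers, all detected, summed to 16570, 15990 and 19650 CPM, with 0 called between replicate 2 and either other. Lyz2 made up most of that sum, at 9028, 8236 and 11040 TMM-scaled CPM. Erythroid markers had 5 of 8 at 0 rounded counts in every library, including the globin genes, T and NK cell markers 2 of 6 and stromal markers 2 of 6. The summed CPM of B cell markers was 10.9, 11.3 and 19.2. The part of the nuclear RNAs and of the progenitor and neutrophil markers in the difference was not tested.

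**Figure D4:**
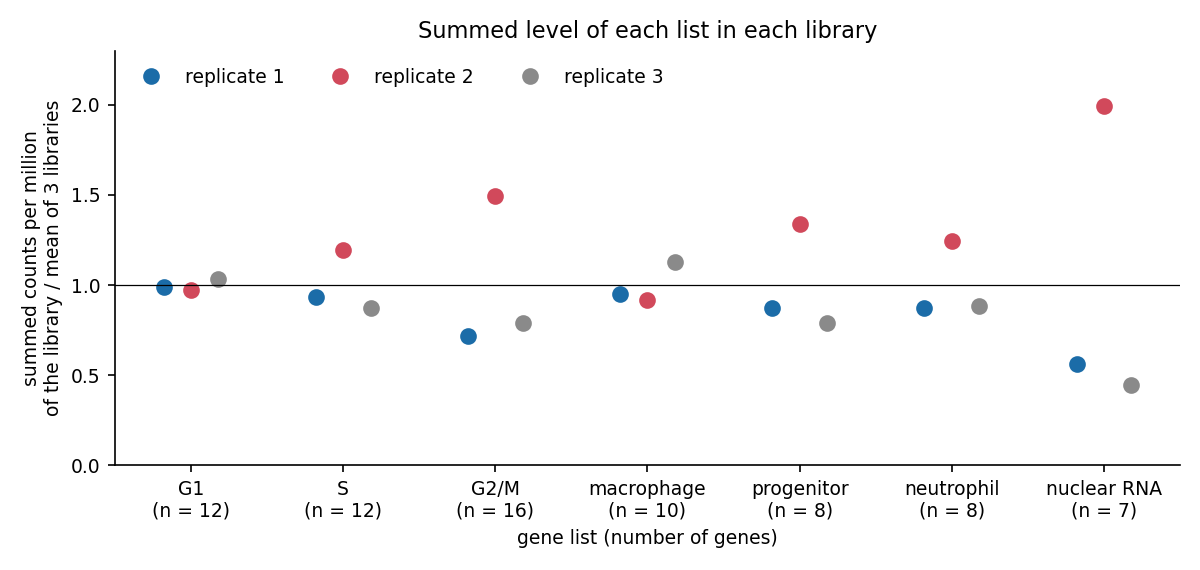
Summed CPM of each gene list in each library (points), divided by the mean of the 3 libraries (y axis, starting at 0), for the 3 phases, 3 cell type lists and the nuclear RNAs (x axis, number of genes in brackets). In the S, G2/M, progenitor, neutrophil and nuclear lists replicate 2 is highest, and in the G1 and macrophage lists replicate 3 is. Malat1 makes up most of the nuclear sum and Lyz2 most of the macrophage sum.

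The transcripts behind the levels were read from the alignment-free tables, for the 34 genes of mean 1 TPM or more. The leading transcript held a median of 89.1% of the gene's TPM (76.5% over 9342 protein-coding genes). It was protein-coding in 33 of the 34 and of another type in 1, beside 478 of the 9342. The exception was Tyms, where Tyms-205, annotated as subject to nonsense-mediated decay, held 59.1, 38.4 and 52.8%. In Cdk1, transcripts with a retained intron held 50.8, 47.1 and 38.5%, above the leading coding transcript in replicates 1 and 2 and below it in replicate 3 (42.0, 35.7 and 49.3%). In Top2a 31.2, 33.8 and 35.3% lay on transcripts that are not coding. Ccnb1-201 held 71.7, 36.9 and 88.0% of Ccnb1, lowest in replicate 2, and in Rb1 the share not coding was 13.5, 19.2 and 32.5%.

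Retained introns mark RNA that has not been fully spliced. Over all such genes the mean share on transcripts with a retained intron was 4.63, 6.47 and 4.20%, highest in replicate 2. The 9 G1 genes had 4.39, 5.25 and 2.96% and the 11 S genes 4.11, 6.50 and 4.08%, the same order in both. The G2/M mean was 6.90, 5.77 and 4.43% and rested largely on Cdk1, given above, and on Bub1b, at 25.3, 2.26 and 9.71%, so no order of the libraries was read from it.

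Further genes of each phase were read from wider lists. Of 36 further G2/M genes, 15 were detected in every library, a count near the 41.3% of protein-coding genes. Among them, 23 were 1.5-fold or more higher in replicate 2 than in replicate 1 and 22 than in replicate 3, with 0 lower. These calls stood beside 8.42 and 10.1% of all genes tested. Of the 36, 30 were highest in replicate 2, beside 39.4%. Their 3 most abundant members were not called: Cenpa, the centromeric histone, at 49.8, 49.5 and 56.3 CPM, Pttg1, securin, at 12.2, 8.95 and 12.1 CPM and Incenp, a passenger protein, at 33.4, 43.3 and 38.9 CPM. All 13 spindle and cytokinesis genes of the list were highest in replicate 2. Of 42 further S genes, 31 were detected, beside 41.3% of protein-coding genes, and 10 and 12 of the 42 were higher in replicate 2 than in replicates 1 and 3, beside 8.42 and 10.1% of all genes tested, with 0 lower. Here too the abundant members varied little, Samhd1, which degrades DNA precursors, at 403.8, 362.1 and 446.4 CPM and the clamp loader genes Rfc2 and Rfc1 within 1.10-fold.

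Of 28 further G1 genes, 22 were detected, beside 41.3% of protein-coding genes, and 26 had enough counts. Of these 26, 3 were higher in replicate 2 than in replicate 1 (E2f7, E2f8 and Cks1b) and 3 than in replicate 3 (E2f7, E2f8 and Cdkn1c), with 0 lower, counts near the 8.42 and 10.1% of all genes tested. They are named for having been called, and E2f7, encoding an atypical E2F factor, had 1.12, 2.87 and 0.70 CPM. The most abundant were Cdkn1c, encoding the inhibitor p57, at 50.8, 41.6 and 25.7 CPM, Rbbp4 at 87.4, 85.1 and 92.5 CPM and Rbl2, encoding the DREAM subunit p130, at 75.1, 71.8 and 88.0 CPM. Of 15 other targets of p53, a factor that controls Cdkn1a, 13 were detected, beside 41.3% of protein-coding genes. They were led by Btg2, Plk2 and Sesn1 at means of 97.4, 70.2 and 58.6 TPM. A single one of the 15, Eda2r with 14, 19 and 11 counts, was called higher in replicate 2 than in both other libraries. That count lies near the 8.42 and 10.1% of all genes tested.

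**Figure D5:**
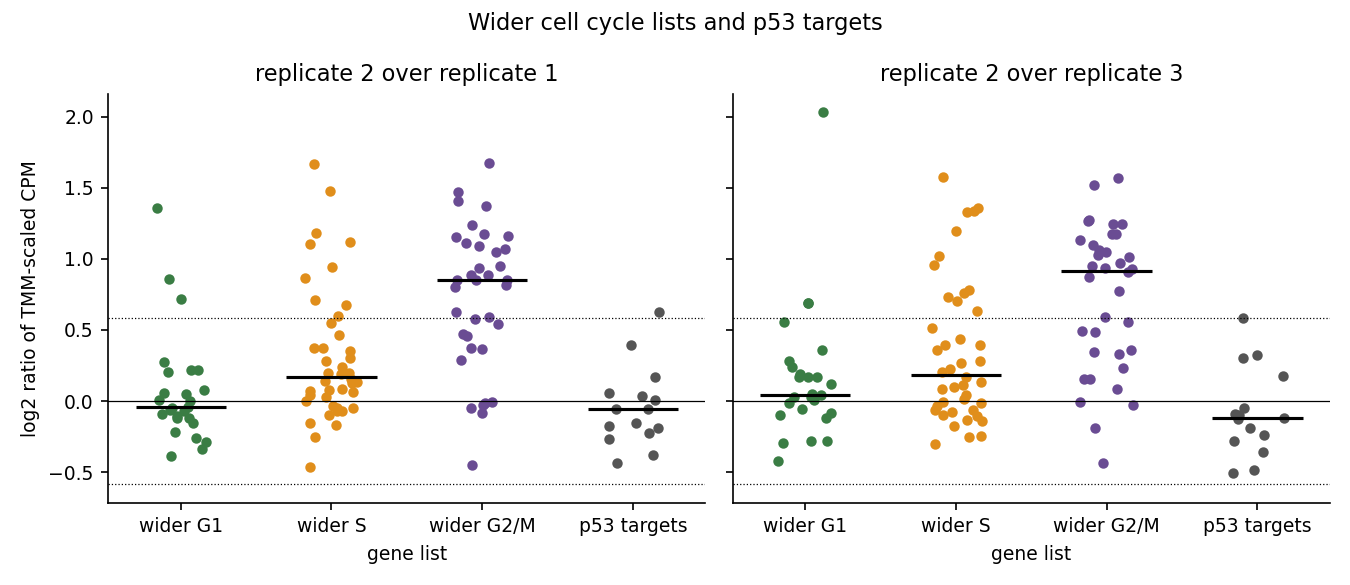
Log2 ratio of TMM-scaled CPM of replicate 2 to replicate 1 (left) and to replicate 3 (right) on the y axis for each gene (points) of the wider lists and the p53 targets (x axis), with medians as black bars and 1.5-fold as dotted lines. The wider G2/M medians lie at 0.85 and 0.92, the wider S medians at 0.17 and 0.18, and those of the p53 targets at -0.06 and -0.12.

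Several of the 40 genes overlap an expressed neighbour, and the sources used here do not state whether reads were counted by strand, so their values are uncertain. Cdk4 lies opposite Tspan31 (24.7 TPM), Rb1 opposite Rcbtb2 and Lpar6 (53.3 and 9.89 TPM), Mcm7 opposite Cops6 (15.5 TPM), Cdc20 opposite Elovl1 (35.8 TPM) and Ccna2 opposite Exosc9 (8.46 TPM). Ccne2, Ccnd3, Ccnd1 and Cdkn1a also overlap an expressed gene on the opposite strand. Cdt1 shares its strand with Gm20388 (9.99 TPM). As deposited, the alignment-free TPM were lower than the alignment-based ones (in replicate 1, 4.03 against 8.37 for Ccnd1 and 27.6 against 59.46 for Pcna). After both had been rescaled to 1 common total over nuclear protein-coding genes, 0 of the 40 genes differed by 1.5-fold or more in mean TPM, beside 5.63% of 11086 protein-coding genes. On that rescaled TPM the largest ratios were those of Ccne2 and Ccne1 (1.43- and 1.42-fold higher in the alignment-free tables) and Mcm3 (1.32-fold lower).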

How the data were processed

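Total RNA of the cytosolic fraction was sequenced in 3 libraries after ribosomal RNA depletion. Per the file headers, the authors deposited gene and transcript tables in the columns RSEM writes, with expected counts and TPM, and transcript tables in the columns kallisto writes, with estimated counts and TPM, on mm10 with GENCODE M21. Deposited expected counts and estimated counts are not normalized, and the deposited TPM of a table share 1 total, so that each depends on the rest. No source used here gives tool versions. Total expected counts were 53055764, 43620362 and 38623777, of which 0.1863, 0.1672 and 0.0396% lay off genes and were left out of library sizes.

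Expected counts were rounded, filtered with filterByExpr (1 group, 12744 genes) and scaled with TMM in edgeR 4.0.16 (R 4.3.3), with log2 CPM at a prior count of 2. The fold step was tested on simulated data. With 1 group there is no contrast and no p-value. Phase differences used a pseudocount of 0.1. Promoters came from RefSeq tables, and protein motifs were not analysed. The alternatives were DESeq2 1.42.0 size factors, other filters, folds, pseudocounts and thresholds, the other tables and each replicate left out.

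Named with values were, per phase, the 5 genes of highest and 3 of lowest mean TPM and every gene past 1.5-fold, and the 3 highest of each wider list. The members, lists and rules were chosen with earlier results of these data known.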

Additional observations from a re-analysis of the deposited data

How the results depend on the processing

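The order of the phases, G1 above S above G2/M, kept its direction under every alternative run. Median levels depended on the scale: they were 2.16, 1.08 and 0.391 TPM for G1, S and G2/M in the alignment-free tables, 27.3, 14.8 and 5.32 TPM when rescaled over protein-coding genes, and 17.8, 8.98 and 2.03 TPM as means in place of medians, and the G1 median was 11.2 TPM over genes of mean 1 TPM or more. Over those genes the log2 difference was 1.51 from G1 to S and 2.97 from G1 to G2/M. With a pseudocount of 1 the differences to G2/M were 1.76 from G1 and 1.03 from S, since a larger pseudocount compresses low values. Detected S genes numbered 3 at 5 TPM and 5 in the alignment-free tables, and detected G2/M genes 15 at 0.5 TPM, 1 at 5 TPM and 1 in the alignment-free tables, whose TPM are lower throughout. Of all protein-coding genes, 30.1% were detected by the alignment-free TPM. Their share at 0.5 and 5 TPM was not computed, so the counts at those thresholds cannot be set against genes in general.

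Leaving out each replicate in turn gave medians of 6.62 to 7.05, 3.35 to 4.02 and 1.06 to 1.47 TPM, and 5 to 10 detected G2/M genes, with 10 without replicate 1. The median SD of log2 CPM ranged from 0.0887 to 0.221 in G1, 0.106 to 0.435 in S and 0.117 to 0.739 in G2/M, lowest without replicate 2 in each phase.

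At 2-fold in place of 1.5-fold, 10 and 12 genes were higher in replicate 2 than in replicates 1 and 3, and 0 lower in replicate 3 than in replicate 1. Genes lower in replicate 2 than in replicate 3 numbered 1 (Cdkn1a) with library size alone and 1 (Cdkn1a) in the alignment-free counts. Genes lower in replicate 3 than in replicate 1 numbered 0 with library size alone and 2 (Ccnd1 and Cdc6) in the alignment-free counts. Of the recomputed values, 107 stayed within the spread or within 1.5 times of the count, and 31 moved. No paired analysis was possible because all libraries belong to 1 group.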

Other observations

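Some genes of the wider lists, named here after their values were seen, had larger ratios than most of the 40. Tk1, the thymidine kinase that recycles a DNA precursor, had 2.45, 7.75 and 3.03 CPM in replicates 1, 2 and 3 (3.17- and 2.56-fold higher in replicate 2). Uhrf1, which maintains DNA methylation at the fork, had 7.50, 16.1 and 6.36 CPM, and Pole, the catalytic subunit of a replicative polymerase, 3.29, 7.47 and 2.98 CPM. The activators of the G2/M program were low: Foxm1 had 4.44, 9.19 and 3.20 CPM and Mybl2, encoding B-MYB, 0.95, 2.45 and 0.83 CPM. Foxm1 was thus 2.07- and 2.87-fold and Mybl2 2.59- and 2.96-fold higher in replicate 2 than in replicates 1 and 3.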
